A study of Mus musculus with 48 samples.

Results

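Gene expression was compared between 2 lines of 32D-BCR/ABL cells 12 h after 4-hydroxytamoxifen (4-HT), at 3 arrays per line, which makes 6 of the 48 arrays of the series. The members were chosen by line and time alone: WT C/EBPα-ER cells at 12 h and cells with the empty MigRI vector at the same time, over all 45037 probe sets that are not controls. The 12 h signals were set against each other directly, with no subtraction of the 0 h difference, so the comparison describes the final state of the WT cells and includes what already differed between the lines before 4-HT. Both groups are mouse 32D cells, an immature myeloid line kept in culture, which express BCR/ABL, the tyrosine kinase of chronic myeloid leukaemia, and both received 4-HT. The WT line carries wild-type C/EBPα joined to the ligand-binding region of the estrogen receptor (ER) in the MigRI retroviral vector, and the control line carries MigRI without an insert. The rest of the series covers the same lines at 0, 6 and 9 h and 2 further lines with the K298E or the Δ(177-191) form of the fusion. Each construct is represented by 1 transduced line, and no untreated culture at 12 h was used here, so the construct and the line cannot be told apart. The labels speak of a triplicate and also of separate experiments, and they do not say which replicate numbers belong to which experiment, so the p-values rest on the spread among arrays alone, which may be technical.

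C/EBPα is a basic leucine zipper transcription factor that commits myeloid progenitors to the granulocyte fate. It binds the promoters and enhancers of genes for granule proteins, growth factor receptors and further myeloid transcription factors, and it slows proliferation through contacts with cell cycle proteins. In BCR/ABL-positive leukaemia its amount can be low, and the ER fusion supplies a form meant to stay inactive until 4-HT binds the receptor region. Whether the fusion was inactive before 4-HT in these cells was not tested.

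Signals are MAS5 intensities on a linear scale. The median signal of the 6 arrays lay between 11 and 14, the trimmed mean was 100.0 on each, the 3' to 5' ratio of the Gapdh controls was 0.788 to 0.806 and no pair of arrays held identical values. Over the 11025 probe sets with bright signals, Pearson's r of log2 signals was 0.9883 to 0.9928 within groups and 0.9302 to 0.9364 between them, a description of arrays that share most transcripts. Esr1, the estrogen receptor gene, checks the labels through its brightest probe set, which read 21, 14 and 21 on the vector arrays and 2225, 2001 and 2292 on the WT arrays. Whether it reads the transcript of the fusion was not tested, and it was high in the K298E and Δ(177-191) lines as well (means of 1010 and 3350 at 12 h), so it can tell the fusion lines from vector but not from each other. The other 2 Esr1 probe sets did not separate the groups, with 9, 10 and 12 against 17, 3 and 6 on the dimmer of them.

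At 12 h, 3424 of 27167 tested probe sets (12.6%) differed between the lines at an adjusted p under 0.05, 1621 higher (5.97%) and 1803 lower (6.64%) in WT. Counted with 1 probe set per gene, 2115 of 12800 genes (16.5%) passed, of which 1010 (7.89% of all genes) were higher and 1105 (8.63%) lower. With each array centred on its own median the probe set counts were 1788 higher and 1380 lower, so the balance of the directions depends on the scaling. Most differences were small: the median size among the genes that passed was 0.58 on the log2 scale for higher and 0.52 for lower genes. By 2-fold or more 249 genes (1.95%) were higher and 192 (1.5%) lower, and by 4-fold or more 66 (0.516%) were higher and 26 (0.203%) lower. The large differences therefore lay more on the higher side, although the counts at any size were similar. Differences are of log2(signal + 3), which understates those of dim genes, and errors of differences are standard errors of the model.

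**Figure D1:**
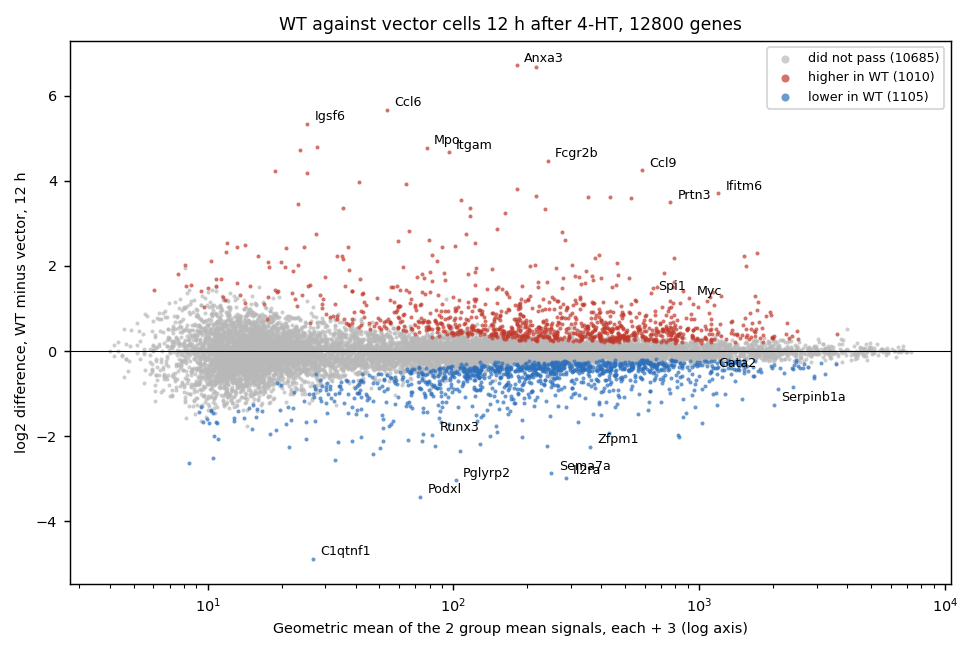
The log2 difference between WT and vector cells at 12 h (vertical axis) is plotted against the geometric mean of both group mean signals, each + 3 (horizontal log axis), with 1 point per gene for 12800 genes. Red points are the 1010 genes higher and blue points the 1105 genes lower in WT at an adjusted p under 0.05; the upper edge, led by Anxa3 at 6.71, reaches farther from 0 than the lower edge, which ends with C1qtnf1 at -4.88.

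A small group of genes was at the dim end of the array in vector cells and had a clear signal in WT cells. In 9 genes the vector mean was at or under 14, the median signal of the whole table, while the WT mean was at least 100; they were Ccl6, Igsf6, Ctsg, Mpo, Tnfrsf14, Plppr3, Ccr1, Cd33 and Dmkn, a set picked after the values were seen. The opposite pattern, a WT mean at or under 14 with a vector mean of at least 100, was met by 1 gene, C1qtnf1, which encodes a secreted C1q-related protein. Most of the genes that passed were instead expressed in both lines and differed in level: 709 of the higher and 766 of the lower genes had mean signals of at least 100 on both sides. In bulk RNA, fewer cells of a type and less RNA per cell cannot be told apart.

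The highest difference of all was that of Anxa3, an annexin of neutrophils. It read 11, 12 and 22 on the vector arrays and 1970, 1751 and 1729 on the WT arrays. The groups did not overlap, and the log2 difference was 6.71 ± 0.19 (adjusted p = 7.94e-29). The other annexins did not share its direction throughout: of 8 tested annexins 2 were higher and 3 lower, with a median of -0.04, against -0.03 over all genes tested, and this median turns positive with median centring. Anxa5, the phosphatidylserine-binding annexin, was at 955, 952 and 927 in vector and 432, 432 and 371 in WT cells, a difference of -1.20 ± 0.07 (adjusted p = 5.48e-17).

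Genes of the primary (azurophil) granules, the stores of proteases and myeloperoxidase that appear in promyelocytes, were among the highest. Mpo, which encodes myeloperoxidase, read 8, 23 and 7 in vector and 366, 388 and 401 in WT cells. Every WT array lay above every vector array, and the difference was 4.77 ± 0.40 (adjusted p = 7.58e-13). The serine protease genes Ctsg (cathepsin G; 3, 1 and 3 against 142, 155 and 133) and Prtn3 (proteinase 3; 223, 216 and 234 against 2646, 2532 and 2491) differed by 4.80 ± 0.42 and 3.49 ± 0.13. Prtn3 was thus already well expressed in vector cells, whereas the vector signals of Mpo and Ctsg were in the dim range, where the size of the difference depends on the added 3. Of 11 tested members 5 were higher and 2 lower (45.5% and 18.2%), with a median of 0.52 (0.33 with a pseudocount of 32). The counts of this and the following lists stand beside 7.89% higher and 8.63% lower over all genes tested. Serpinb1a, an inhibitor of these same proteases, was on the other side: it read 3102, 3071 and 3171 in vector and 1390, 1248 and 1238 in WT cells, a difference of -1.27 ± 0.12 (adjusted p = 2.28e-11). The other lower member, Ctsc, which encodes the protease that activates granule proteases, was at -0.36 (adjusted p = 0.0464) and did not pass with WT replicate 2 or 3 or any vector array left out (adjusted p = 0.0672 to 0.173). It also did not pass with no filter (adjusted p = 0.0696) or median centring (adjusted p = 0.119).

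Proteins of later granules and the S100 family gave 8 higher and 3 lower of 14 members (57.1% and 21.4%), with a median of 0.74. The later granule genes Camp, Mmp8, Chil3 and Olfm4 were on the array but too dim for the filter in every group, so the counts leave them out. The median was 0.48 and 0.31 with pseudocounts of 12 and 32, 0.35 with no filter and 0.46 with a filter on the compared groups. Lcn2, the siderophore-binding protein of secondary granules, read 113, 119 and 129 in vector and 1545, 1490 and 1505 in WT cells, a difference of 3.62 ± 0.14 (adjusted p = 1.46e-23). Slpi, a secreted inhibitor of neutrophil proteases, was at 158, 148 and 139 against 1941, 1809 and 1730, and Hp, which encodes haptoglobin, at 1, 1 and 2 against 82, 79 and 74. Neither gene's groups overlapped, and both differed by over 3 on the log2 scale (3.60 ± 0.14 and 4.24 ± 0.28). All 3 lower members were S100 genes expressed far beyond granulocytes. S100a4 read 1751, 1521 and 1656 in vector and 861, 822 and 792 in WT cells (-0.99 ± 0.10), S100a10 differed by -0.83 ± 0.08 and S100a6 by -0.40 ± 0.09. The S100 family was therefore split, since S100a8 and S100a9, the calprotectin genes of neutrophils, were higher by 1.03 and 1.82; these values were looked up after the split had been seen.

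The surface receptors by which phagocytes sense and engulf were higher in many members. The chemoattractant receptors had 7 of 14 members higher and 0 lower (median 1.04, or 0.68 with no filter and 0.59 with a pseudocount of 32). Gpr84, a receptor for medium-chain fatty acids, read 65, 51 and 59 in vector and 843, 734 and 718 in WT cells (3.65 ± 0.13, adjusted p = 2.86e-25), and the chemokine receptor gene Ccr1 read 10, 2 and 12 against 153, 142 and 163 (3.97 ± 0.20). Cxcr2, the receptor through which neutrophils follow CXC chemokines, was at 13, 8 and 17 against 64, 62 and 81 (2.23 ± 0.28). Integrins and Fc receptors had 10 of 17 higher (58.8%) and 1 lower (5.88%), with a median of 0.72, or 0.34 with a pseudocount of 32. Itgam, the CD11b chain of the complement receptor Mac-1, read 18, 17 and 13 in vector and 477, 471 and 483 in WT cells, a difference of 4.67 ± 0.16 (adjusted p = 1.2e-25). Fcgr2b, the inhibitory Fc receptor for immunoglobulin G, was at 47, 50 and 48 against 1232, 1105 and 1060, a difference of 4.46 ± 0.13. The lower member was Itgb1, the shared β1 integrin chain, at 741, 723 and 716 against 548, 590 and 599 (-0.33 ± 0.07, adjusted p = 0.000415). No WT array overlapped a vector array in any of these receptors.

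Inhibitory and paired receptors, which tune myeloid activation, had 8 of 14 members higher (57.1%) and 1 lower (7.14%). Their median was 1.08, or 0.55 with a pseudocount of 32. Cd33, a sialic-acid-binding receptor, read 13, 22 and 7 in vector and 230, 273 and 218 in WT cells (3.93 ± 0.31), and Vsir, an immune checkpoint protein, 35, 29 and 22 against 361, 367 and 359 (3.55 ± 0.16). Igsf6, an immunoglobulin superfamily gene, read 1 on each vector array and 152, 168 and 155 in WT cells (5.33 ± 0.35). The member that was lower, Cd200r1, differed by -0.50, and its other tested probe set had the opposite sign without passing (0.88, adjusted p = 0.0889). Of the 4 tested subunits of the phagocyte oxidase, the enzyme of the respiratory burst, 3 were higher (median 0.87). The other, Rac2, did not pass, and 1 member was lower with quantile normalization. Cybb, the gene of a further subunit, was on the array but too dim for the filter, and with no filter the median was 0.58. The membrane subunit gene Cyba read 1236, 1073 and 1170 against 2822, 2447 and 2494 (1.16 ± 0.12), and the cytosolic subunit genes Ncf1 and Ncf4 differed by 1.41 ± 0.09 and 0.58 ± 0.11. For each of them the lowest WT array lay above the highest vector array.

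**Figure D2:**
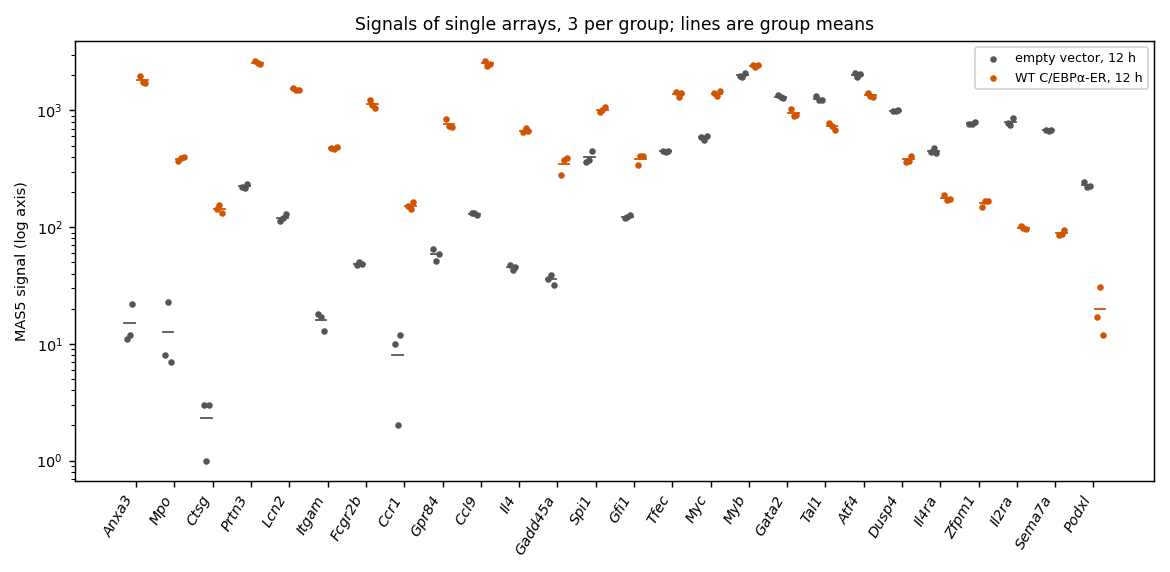
Signals (vertical log axis, MAS5 intensity) are plotted for each of the 3 vector arrays (grey) and 3 WT arrays (orange) at 12 h for 26 of the named genes, with a line at each group mean. The groups do not overlap for any of the genes shown; among these 26 genes the ratio of the mean signals is largest for Anxa3 (15 against 1817), whose vector signals are in the dim range, and the gap is narrow for Myb, whose difference did not pass the threshold.

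Markers of monocytes and macrophages were less uniform, with 5 of 15 tested members higher (33.3%), 1 lower (6.67%) and a median of 0.42. That median turns to -0.06 when the filter asks for a mean above a signal of 14 in WT or vector cells at 12 h. It was 0.26 without vector replicate 1, 0.24 and 0.12 with pseudocounts of 12 and 32 and 0.15 with no filter. Cd68, a lysosomal glycoprotein of macrophages, read 178, 203 and 218 in vector and 411, 407 and 420 in WT cells (1.04 ± 0.08), and Lgals3, galectin 3, read 19, 11 and 11 against 53, 52 and 48 (1.73 ± 0.17). Csf1r, the receptor of macrophage colony-stimulating factor and a defining marker, was at -0.06 (adjusted p = 0.943). The summed signal of the 15 markers was 949 to 1032 on the vector arrays and 1695 to 1800 on the WT arrays, and 7 and 8 of them had mean signals at or under 14. The lower member was Ctss, at 29, 29 and 32 against 15, 21 and 24, which passed narrowly (adjusted p = 0.0409) and did not pass without WT replicate 1 or 2 or any vector array (adjusted p = 0.0635 to 0.307). Nor did it pass with pseudocounts of 12 and 32, no filter, quantile normalization, median centring or the compared arrays alone. Lysosomal cathepsins and membrane proteins had 6 of 12 higher and 5 lower. Ctsz and Lamp2 were among the higher (0.83 ± 0.12 and 0.76 ± 0.09) and Ctse among the lower (-0.52 ± 0.09). Without WT replicate 1 or 2 or any 1 vector array the lower cathepsins were 2 in place of 5. Their count was also 2 with median centring, no filter or the compared arrays alone, and 3 with pseudocounts of 12 and 32. Enzymes of lipid mediators had 2 higher of 11 (18.2%, against 7.89% over all genes) and 0 lower. Without WT replicate 1 or 2 or vector replicate 2 or 3 only 1 of them passed. Lta4h, leukotriene A4 hydrolase, differed by 0.45 ± 0.08, but its 2 other tested probe sets did not pass.

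Secreted signals moved both ways: 7 of 29 tested cytokines and chemokines were higher (24.1%) and 6 lower (20.7%), with a median of -0.23. That median was -0.35 without WT replicate 1, -0.37 without WT replicate 3 and -0.14 and -0.09 with pseudocounts of 12 and 32. The chemokine genes Ccl6 and Ccl9 had the largest differences of the list. Ccl6 read 8, 3 and 3 in vector and 364, 371 and 376 in WT cells (5.67 ± 0.24), and Ccl9 read 133, 132 and 127 against 2670, 2425 and 2513 (4.25 ± 0.13, adjusted p = 1.31e-27). Il4, the T helper and basophil cytokine interleukin 4, was at 47, 43 and 46 in vector and 650, 701 and 667 in WT cells (3.81 ± 0.26, adjusted p = 2.32e-15), a gap many times the spread within each group. On the lower side, Tnfsf9, the ligand of the costimulatory receptor 4-1BB, read 129, 103 and 118 against 51, 40 and 43 (-1.33 ± 0.16), and Ccl17, a chemokine of dendritic cells, 41, 50 and 55 against 13, 30 and 28 (-1.02 ± 0.21). Cytokine receptors had 7 of 32 higher (21.9%) and 5 lower (15.6%). Tnfrsf14, the herpesvirus entry mediator HVEM, read 2, 2 and 1 in vector and 106, 130 and 121 in WT cells (4.71 ± 0.41), and Il18r1, an interleukin 18 receptor chain, 37, 46 and 34 against 146, 169 and 133 (1.86 ± 0.17). Il2ra, which encodes CD25, a receptor chain for interleukin 2 and a classic STAT5 target, was among the lowest genes of the comparison, with 780, 754 and 868 in vector and 102, 99 and 96 in WT cells. Its difference was -2.98 ± 0.11 (adjusted p = 1.9e-24). Il4ra, the receptor chain for interleukin 4, was lower as well, at 437, 474 and 436 against 189, 170 and 174 (-1.32 ± 0.08), so ligand and receptor stood on opposite sides. Csf3r, the receptor of granulocyte colony-stimulating factor and a known C/EBPα target, was dim, with 29, 22 and 21 against 46, 34 and 41. The WT arrays were all above the vector arrays, but the difference of 0.68 ± 0.32 did not pass (adjusted p = 0.189).

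The transcription factors of blood cells had 7 of 36 members higher (19.4%) and 13 lower (36.1%). Their median was -0.10, or -0.05 with median centring and -0.06 with a pseudocount of 32. Spi1, which encodes PU.1, the partner of C/EBPα in myeloid genes, read 365, 376 and 448 in vector and 975, 1000 and 1076 in WT cells (1.36 ± 0.10, adjusted p = 1.09e-14). Gfi1, a repressor needed for neutrophils, read 120, 123 and 126 against 344, 410 and 404 (1.62 ± 0.10, adjusted p = 4.88e-17), and Tfec, a relative of MITF expressed in macrophages, 450, 442 and 450 against 1445, 1317 and 1406 (1.63 ± 0.12). None of the 3 genes showed any overlap between the lines. Several factors of the erythroid, megakaryocyte and stem cell programmes were lower. Zfpm1, the GATA cofactor FOG-1, read 772, 770 and 801 in vector and 149, 169 and 169 in WT cells (-2.25 ± 0.10, adjusted p = 2.12e-21), and Tal1, the SCL factor of stem and erythroid cells, 1326, 1232 and 1225 against 775, 742 and 678 (-0.78 ± 0.07). Runx3 was at 169, 137 and 173 against 36, 40 and 39 (-1.97 ± 0.20). Meis1, a homeobox factor of stem cells, was dimmer, at 36, 37 and 64 against 8, 14 and 15 (-1.65 ± 0.30).

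The genes of c-Myb and GATA-2, both named in the title that the submitters gave, stood on different sides of the test at 12 h. Gata2, a factor of stem and mast cells, read 1354, 1296 and 1276 in vector and 1032, 893 and 909 in WT cells. The groups did not overlap and the difference was -0.47 ± 0.08 (adjusted p = 3.73e-05), a modest one beside those of Zfpm1 and Il2ra. Myb read 1970, 1941 and 2103 in vector and 2446, 2342 and 2439 in WT cells. Every WT array was above every vector array, but the difference of 0.27 ± 0.10 did not pass (adjusted p = 0.079). It passed as higher with quantile normalization (0.28, adjusted p = 0.0199), median centring (0.31, adjusted p = 0.043), array weights (0.26, adjusted p = 0.0127) and the 6 arrays fitted alone (0.27, adjusted p = 0.0088). The probe set that stands for Myb may read related transcripts, by its name. Its other tested probe sets had the same direction, at 0.474 and 0.475, and did not pass (adjusted p = 0.429 and 0.118). Gata1 (54, 47 and 49 against 44, 46 and 42) and Kit (1, 13 and 8 against 13, 2 and 3), genes of the same progenitor programmes, did not pass.

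Of the C/EBP family with its Tribbles regulators, 4 of 12 tested members were higher and 3 lower. Cebpa itself read 44, 45 and 48 in vector and 93, 104 and 92 in WT cells (1.03 ± 0.14, adjusted p = 4.16e-07); whether its probe set reads the transcript of the fusion was not tested. Cebpb, the factor of emergency granulopoiesis, read 354, 349 and 383 against 615, 606 and 732 (0.84 ± 0.10). Trib1, a Tribbles pseudokinase that leads C/EBPα to degradation, read 28, 9 and 27 against 66, 76 and 65 (1.69 ± 0.30), while Trib3, a family member induced by ATF4, was lower at 209, 188 and 198 against 88, 101 and 96 (-1.04 ± 0.15). The ID and E proteins, dominant-negative and activating helix-loop-helix factors, had 1 of 10 higher (10.0%, near the 7.89% over all genes) and 4 lower (40.0%). The higher one was Id2, at 264, 285 and 300 against 387, 412 and 424 (0.52 ± 0.12), and among the lower was Tcf4, the E protein E2-2 (-0.78 ± 0.12).

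The promoters of the genes that passed were searched for TTGCNNAA, a core of C/EBP sites, and for AGATAA, which GATA factors bind, on both strands of 300-base windows around RefSeq starts (250 bases before and 50 after, build GRCm38.p6). TTGCNNAA was present for 35 of 204 genes (17.2%) higher by 2-fold or more, 101 of 836 (12.1%) higher at any size, 96 of 885 (10.8%) lower at any size, 17 of 147 (11.6%) lower by 2-fold or more and 1047 of 10366 (10.1%) of all tested genes with a promoter in the table. AGATAA was present for 24 of the 204 (11.8%), 61 of the 836 (7.3%), 66 of the 885 (7.46%), 16 of the 147 (10.9%) and 859 of the 10366 (8.29%). A match is a description of the letters in the window and does not make a bound site. The 250 bases before the start are shown for 3 genes of the highest and lowest differences, Il4 (chr11:53618666-53618915, minus strand), Pglyrp2 (chr17:32420976-32421225, minus strand) and Myt1l (chr12:29534655-29534904, plus strand), and for 3 granulocyte genes, Lcn2 (chr2:32387740-32387989, minus strand), Slpi (chr2:164356508-164356757, minus strand) and Gfi1 (chr5:107725806-107726055, minus strand). All 6 were picked because their window held a match, after their values were seen. In the lists of granule, phagocyte, receptor, cytokine and transcription factor genes, 67 members passed and had a promoter. Of these, 10 held a match in the 250 bases before a start, among them the lower genes Erg and Tal1, which are not shown. The share over all genes was not taken for the 250 bases, so the shares of the 300-base windows above are not its background. They let the position of the match be read beside the difference of each gene; capitals mark TTGCNNAA on either strand, and each sequence runs 5′ to 3′ towards the start of the gene.
Il4: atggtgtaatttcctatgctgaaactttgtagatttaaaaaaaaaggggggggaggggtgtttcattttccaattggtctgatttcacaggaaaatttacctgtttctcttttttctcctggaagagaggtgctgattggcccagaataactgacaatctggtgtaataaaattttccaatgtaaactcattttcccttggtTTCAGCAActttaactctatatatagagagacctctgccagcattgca
Lcn2: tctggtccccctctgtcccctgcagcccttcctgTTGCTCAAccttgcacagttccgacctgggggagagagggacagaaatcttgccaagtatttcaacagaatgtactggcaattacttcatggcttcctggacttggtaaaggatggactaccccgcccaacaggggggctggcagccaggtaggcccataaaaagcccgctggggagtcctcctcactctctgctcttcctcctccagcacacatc
Slpi: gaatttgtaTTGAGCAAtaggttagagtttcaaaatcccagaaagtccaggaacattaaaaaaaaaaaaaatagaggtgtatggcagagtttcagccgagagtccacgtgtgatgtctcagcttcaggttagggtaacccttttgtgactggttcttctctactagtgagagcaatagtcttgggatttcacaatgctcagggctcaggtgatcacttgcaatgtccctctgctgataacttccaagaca
Gfi1: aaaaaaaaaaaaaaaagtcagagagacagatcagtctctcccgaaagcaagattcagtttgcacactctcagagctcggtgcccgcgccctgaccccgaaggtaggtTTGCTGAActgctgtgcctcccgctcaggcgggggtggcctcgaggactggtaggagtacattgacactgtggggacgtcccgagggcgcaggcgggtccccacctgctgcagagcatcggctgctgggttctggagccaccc
Pglyrp2: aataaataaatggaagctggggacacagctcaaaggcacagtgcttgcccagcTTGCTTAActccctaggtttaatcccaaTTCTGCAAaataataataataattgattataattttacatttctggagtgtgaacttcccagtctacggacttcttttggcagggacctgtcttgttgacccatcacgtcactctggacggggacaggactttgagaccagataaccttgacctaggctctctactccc
Myt1l: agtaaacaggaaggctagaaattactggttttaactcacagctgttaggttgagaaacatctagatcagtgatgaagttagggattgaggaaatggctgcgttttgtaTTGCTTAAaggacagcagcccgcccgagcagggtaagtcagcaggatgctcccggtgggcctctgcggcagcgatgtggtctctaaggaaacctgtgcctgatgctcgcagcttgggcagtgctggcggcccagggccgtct
In Il4, higher by 3.81, the match began 48 bases before the start, and in Gfi1, higher by 1.62, it began 143 bases before it. In Lcn2 and Slpi it lay farther away, at 216 and 241 bases. Pglyrp2, an amidase that cleaves peptidoglycan and differed by -3.03 ± 0.14 (316, 303 and 252 against 31, 33 and 34), held 2 matches, the nearer 169 bases before the start. Myt1l, a neural zinc finger factor at 203, 176 and 159 against 30, 38 and 39 (-2.24 ± 0.30), held 1 match at 142 bases.

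Among growth factor feedback genes, lower members outnumbered higher ones. Of 28 tested members of the STAT5 and ERK feedback list, the inhibitors and targets that active cytokine and kinase signals induce, 2 were higher and 13 lower (46.4% lower, median -0.33). Dusp4, a phosphatase of ERK, read 998, 993 and 1004 in vector and 365, 372 and 405 in WT cells (-1.39 ± 0.09, adjusted p = 1.29e-16), and Dusp7 291, 283 and 300 against 119, 149 and 144 (-1.07 ± 0.12). Bcl2l1, the survival gene BCL-XL and a STAT5 target, was at 374, 389 and 374 against 222, 250 and 223 (-0.70 ± 0.09). All of these groups were apart. The 2 higher members were Myc, at 594, 560 and 609 against 1409, 1320 and 1455 (1.24 ± 0.09, adjusted p = 2.51e-14), and Phlda1 (0.96 ± 0.10). The mouse genes Abl1 and Bcr did not pass: Abl1 read 166, 181 and 172 against 152, 153 and 161 (-0.15, adjusted p = 0.484), and Bcr 111, 119 and 102 against 136, 142 and 121 (0.26, adjusted p = 0.111; 0.0434 with array weights). Whether these mouse probe sets read the BCR/ABL transcript was not tested.

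The cell cycle lists are read against the shares over all genes, 7.89% higher and 8.63% lower. Of 42 DNA replication genes 0 were higher and 8 lower (19.0% lower, median -0.14). The lower count was 5 without any 1 of the WT arrays or vector replicate 1 or 2, and also with median centring. Mcm2, a subunit of the replicative helicase, read 1626, 1629 and 1411 against 1254, 1122 and 1129 (-0.41 ± 0.09), and Tk1, thymidine kinase, 761, 725 and 753 against 559, 531 and 500 (-0.49 ± 0.08). Of 39 G2/M and mitosis genes 3 were higher and 4 lower (7.69% and 10.3%; median -0.07, or -0.03 with median centring), with 1 higher without WT replicate 2 or vector replicate 2. Ccnb2, a mitotic cyclin, differed by -0.30 ± 0.06, and Anln, the actin-binding protein anillin, by 0.56 ± 0.09. The list of CDKs, cyclins, inhibitors, E2F and RB genes had 6 of 30 higher and 6 lower (20% each), and the higher count was 3 without WT replicate 1 or vector replicate 3. Its largest difference was Gadd45a, a growth arrest gene, at 36, 39 and 32 against 281, 376 and 388 (3.17 ± 0.16, adjusted p = 9.65e-20). Rb1, the retinoblastoma gene, was higher at 107, 123 and 118 against 252, 205 and 213 (0.92 ± 0.15), and Cdk6 and the inhibitor gene Cdkn2d were lower (-0.52 ± 0.08 and -0.73 ± 0.07). Cdk2 and Cdk4, whose products bind C/EBPα, and Cdkn1a did not pass: Cdk2 read 306, 327 and 299 against 323, 331 and 326, Cdk4 2203, 1996 and 2000 against 2013, 1886 and 1909, and Cdkn1a 1813, 1755 and 1695 against 1818, 1666 and 1751. The groups overlapped for all 3. The Myc network and ribosome biogenesis genes had 7 of 41 higher and 0 lower (17.1% higher, median 0.13), and 4 higher without WT replicate 2. Besides Myc they included Mxd1, a Myc antagonist (18, 10 and 8 against 31, 25 and 38), and Rrs1, a ribosome assembly factor (629, 584 and 568 against 849, 930 and 884).

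In several stress and metabolic programmes lower members outnumbered higher ones. Over all genes tested 7.89% were higher and 8.63% lower. Of 30 tested genes of the ATF4 and amino acid response, 14 were lower and 1 higher (46.7% lower, median -0.37). Atf4, the factor that drives them, read 2093, 1939 and 2062 in vector and 1426, 1344 and 1315 in WT cells (-0.58 ± 0.07), and the amino acid transporter genes Slc1a4 (150, 148 and 169 against 48, 46 and 46) and Slc6a9 differed by -1.67 ± 0.13 and -0.92 ± 0.11. The higher member was Nupr1, a stress-induced chromatin protein, at 73, 58 and 74 against 204, 216 and 198 (1.56 ± 0.12). Of 28 hypoxia and glycolysis genes 12 were lower (42.9%) and 4 higher (14.3%), with a median of -0.24, and 7 were lower with median centring. Ndrg1 and Bnip3, both induced by low oxygen, differed by -0.73 ± 0.10 and -0.61 ± 0.09, whereas Ero1a, an oxidase of the endoplasmic reticulum, was at 1283, 1144 and 1255 against 2510, 2267 and 2405 (0.96 ± 0.10). Sterol and fatty acid synthesis had 6 of 31 lower (19.4%) and 2 higher (6.45%), and 1 higher without WT replicate 2. Idi1, an isomerase of the mevalonate route, read 1668, 1510 and 1653 against 820, 758 and 821 (-1.01 ± 0.09), while Fdps of the same route differed by 0.33 ± 0.08. Endoplasmic reticulum chaperones and stress sensors had 6 of 25 higher (24.0%) and 2 lower (8.0%). The lower count was 1 without WT replicate 1 or 2 or vector replicate 1 or 3, and also with median centring. The sensor kinase gene Ern1 read 180, 186 and 155 against 393, 406 and 383 (1.17 ± 0.11), Edem1 differed by 0.94 ± 0.10, and Herpud1 by -0.48 ± 0.09. Of 19 cytosolic and mitochondrial chaperones 0 were higher and 2 lower (10.5%, near the 8.63% over all genes). The lower count was 1 without WT replicate 2 or any 1 vector array, and also with median centring or no filter.

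The interferon response had 8 of 31 members lower and 2 higher, with 1 higher without WT replicate 2 or 3 or vector replicate 1 or 3. Usp18, a brake on interferon signalling, read 138, 124 and 136 in vector and 57, 57 and 55 in WT cells (-1.19 ± 0.14), while Irf7 was higher from a low level, at 14, 9 and 13 against 30, 52 and 40 (1.53 ± 0.25). Ifitm6, which belongs to the interferon-induced transmembrane family by sequence, was among the highest genes, at 364, 321 and 299 against 4615, 4110 and 4152 (3.70 ± 0.12, adjusted p = 2.64e-27). The BCL2 family and death genes had 3 of 23 higher and 6 lower. Bcl2 was at 402, 411 and 404 against 250, 213 and 200 (-0.87 ± 0.12) and the caspase gene Casp6 at 337, 315 and 309 against 625, 624 and 579 (0.92 ± 0.07). Early response and AP-1 genes had 3 of 27 higher (11.1%) and 4 lower (14.8%), near the shares of 7.89% and 8.63% over all genes. The higher count was 1 without vector replicate 2 and 6 with array weights. Among these genes Jund read 819, 763 and 1113 against 519, 508 and 640, and Ier3 327, 322 and 317 against 543, 503 and 517. Of 16 estrogen receptor targets 2 were higher, Myc and the protease gene Ctsd (0.51 ± 0.11), and 3 lower, among them Nrip1, at 340, 346 and 308 against 204, 249 and 235. The lower shares of the interferon and BCL2 lists were 25.8% and 26.1%, against 8.63% over all genes.

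**Figure D3:**
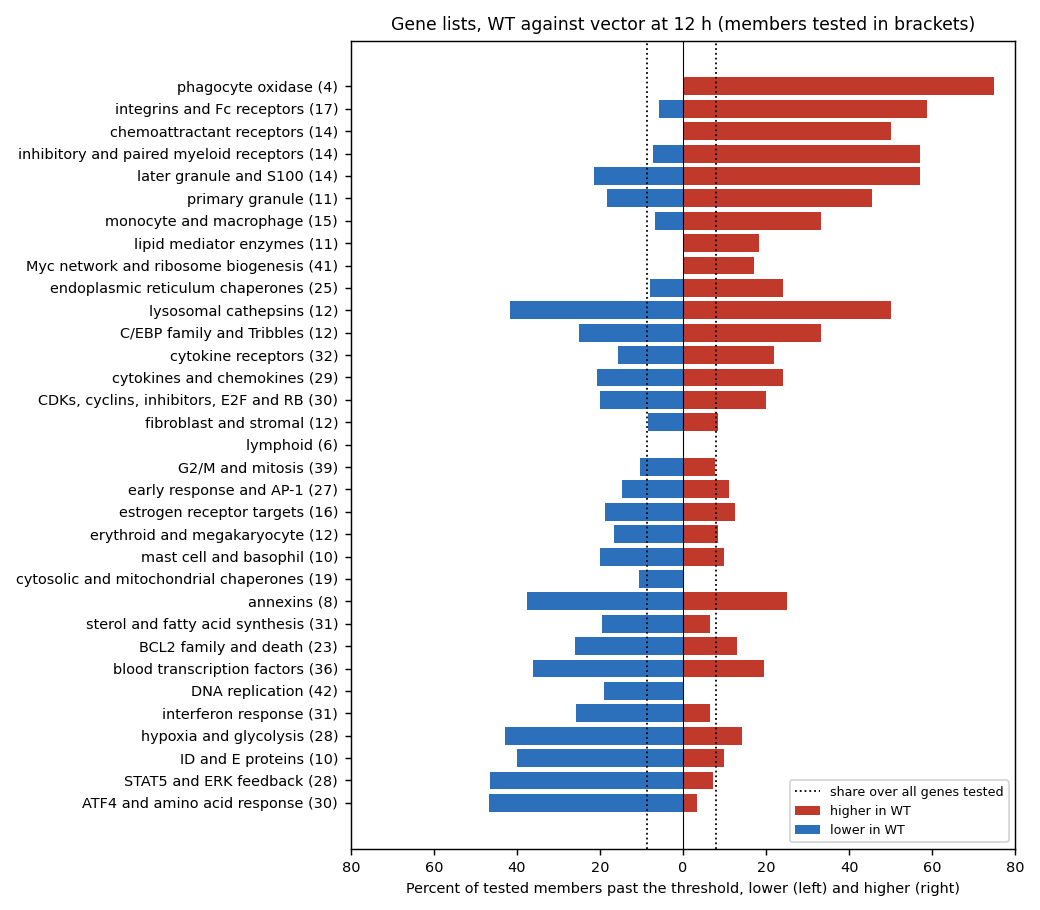
For each of the 33 gene lists, bars give the percent of tested members that passed the threshold as higher (red, to the right) and lower (blue, to the left) in WT cells at 12 h, with the number tested in brackets. Dotted lines mark the shares over all genes tested, 7.89% higher and 8.63% lower; phagocyte oxidase, integrins and Fc receptors and chemoattractant receptors lie at the top, and the ATF4 and STAT5 lists at the bottom.

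Of the markers of other cell types some passed in both directions, and their part in the differences of other genes was not tested. Against shares over all genes of 7.89% higher and 8.63% lower, the mast cell list had 10% higher and 20% lower, the erythroid and megakaryocyte list 8.33% and 16.7%, and the stromal list 8.33% each way, from no more than 12 tested members a list. The mast cell and basophil list had 1 of 10 members higher, Cd200r3 at signals of 10 or less on every array, and 2 lower, Gata2 and Slc18a2, a monoamine transporter (1231, 1149 and 1157 against 693, 718 and 712). Cd200r3 did not pass without WT replicate 2 (adjusted p = 0.0698) or vector replicate 1 (adjusted p = 0.0528). It also did not pass with pseudocounts of 12 (adjusted p = 0.0736) and 32 (adjusted p = 0.181) or with the compared arrays alone (adjusted p = 0.106). With the filter on the compared groups 0 members of the mast cell list were higher. The summed signal of the mast cell list was 6133 to 6481 in vector and 6853 to 7239 in WT cells. Erythroid and megakaryocyte markers summed to 3098 to 3121 and 2583 to 2662, with 1 of 12 higher, the platelet chemokine gene Ppbp (2, 15 and 5 against 36, 34 and 35), and 2 lower, among them Itga2b, the platelet integrin chain CD41 (1232, 1175 and 1245 against 816, 732 and 744); without WT replicate 1 or 3 or vector replicate 2 or 3 only 1 was lower. Lymphoid markers had 0 of 6 past the threshold at sums of 147 to 165 and 151 to 163. Fibroblast and stromal markers had 1 of 12 higher, Pecam1, which blood cells express too (792, 780 and 829 against 1499, 1444 and 1545), and 1 lower, Cdh5 (38, 51 and 55 against 6, 10 and 12), at sums of 5350 to 5588 and 5445 to 5586. Mean signals at or under 14 were found for 6 mast cell and 7 stromal members in vector cells. In WT cells they were found for 5 and 6. The mast cell list also shares Srgn with the primary granule list, so the sums do not measure the content of a cell type.

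The lowest end of the comparison held genes of varied function. C1qtnf1 read 173, 132 and 118 in vector and 4, 1 and 1 in WT cells (-4.88 ± 0.29, adjusted p = 1.72e-17), and Podxl, a sialomucin of progenitors and endothelium, 243, 221 and 227 against 17, 31 and 12 (-3.43 ± 0.17). Sema7a, a membrane-anchored semaphorin, was at 686, 663 and 674 against 86, 88 and 95 (-2.87 ± 0.13, adjusted p = 7.91e-22). These vector signals were tight and several times the WT signals. Slamf1, the signalling lymphocyte molecule CD150 of stem cells, read 279, 266 and 260 against 70, 54 and 49 (-2.18 ± 0.19), Clnk, an adaptor of immune receptors, 242, 241 and 226 against 43, 44 and 45 (-2.35 ± 0.18), and Slc14a1, a urea transporter of red cells, 104, 92 and 119 against 22, 12 and 19 (-2.41 ± 0.28). The remaining genes among the 15 lowest were Bcl2l14, Fam20a, Gpx8, Mamdc2 and Camk2a, at differences of -2.27 to -2.09. Another of the 15 highest was Plppr3, a membrane protein of the phospholipid phosphatase family, at 1, 5 and 3 against 82, 118 and 110 (4.19 ± 0.37).

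The direct comparison includes what set the lines apart before 4-HT. At 0 h 731 genes (5.71%) differed between WT and vector cells, 372 higher (2.91%) and 359 lower (2.8%). The 12 h and 0 h differences come from different arrays of the same lines, but their tests share 1 estimate of the spread over all 48 arrays. Of the 1010 genes higher at 12 h, 225 (22.3%, and 60.5% of the 372) were higher at 0 h too, and of the 1105 lower genes 188 (17%, and 52.4% of the 359) were lower at 0 h. Among the 66 genes higher by 4-fold or more at 12 h the share was larger, with 35 already higher at 0 h, and among the 26 lower by 4-fold or more 13 were already lower. The median 0 h difference of the genes higher at 12 h was 0.16, against 0.58 at 12 h, and that of the lower genes -0.14 against -0.52. Ccl9 was nearly as far apart before 4-HT as after it, at 160.7 ± 11.7 in vector and 2151 ± 246 in WT cells at 0 h (SD, n = 3), a difference of 3.71 ± 0.13 against 4.25 at 12 h. Cd68 likewise differed by 1.20 ± 0.08 at 0 h and 1.04 at 12 h. Anxa3 (3.58 at 0 h), Ccl6 (3.73), Ctsg (2.39), Itgam (1.89), Sema7a (-1.79) and C1qtnf1 (-1.84) had a part of their 12 h difference at 0 h. Mpo (0.16, adjusted p = 0.915), Gpr84 (-0.04), Il4 (0.19), Gfi1 (0.04), Tal1 (0.09) and Serpinb1a (0.00) did not pass at 0 h.

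**Figure D4:**
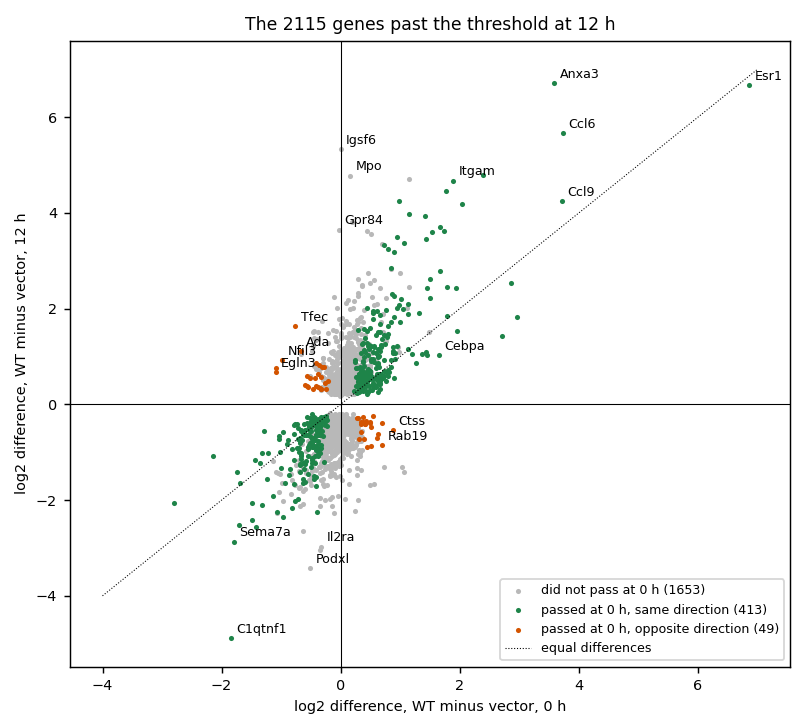
The log2 difference between WT and vector cells at 12 h (vertical axis) is plotted against the difference at 0 h (horizontal axis) for the 2115 genes that passed at 12 h. Green points (413) passed in the same direction at 0 h, orange points (49) in the opposite direction and grey points (1653) did not pass at 0 h; Ccl9 and Esr1 lie near the line of equal differences, Mpo, Igsf6 and Gpr84 near 0 on the horizontal axis.

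For 49 genes the lines had changed places between 0 h and 12 h, 26 from lower to higher and 23 from higher to lower. Tfec, at 335 ± 19.7 in vector and 196.3 ± 9.45 in WT cells at 0 h (SD, n = 3), differed by -0.76 ± 0.12 (adjusted p = 1.39e-05) before 4-HT and by 1.63 at 12 h. Nfil3, a basic leucine zipper factor of lymphoid and myeloid cells, went from -0.99 ± 0.15 to 0.92 ± 0.15, with 359, 357 and 330 in vector and 572, 736 and 683 in WT cells at 12 h. Ada, adenosine deaminase, went from -0.67 ± 0.10 to 1.10 ± 0.10 (234, 208 and 244 against 485, 496 and 502 at 12 h), and Ehbp1, an EH domain-binding protein, from -0.42 ± 0.11 to 0.86 ± 0.11. In the other direction Rab19, a small GTPase, went from 0.69 ± 0.21 (adjusted p = 0.0473) to -0.85 ± 0.21, with 118, 134 and 132 against 69, 73 and 67 at 12 h. The 0 h call of Rab19 did not hold with any 1 of the 6 arrays at 12 h left out (adjusted p = 0.0516 to 0.0526), with no filter (adjusted p = 0.0686) or with quantile normalization (adjusted p = 0.0803), and that of Ehbp1 did not hold with the compared arrays fitted alone (adjusted p = 0.0563). Atf4 was higher in WT at 0 h (0.33 ± 0.07; adjusted p = 0.0701 with quantile normalization) and lower at 12 h. Egln3, an oxygen-sensing prolyl hydroxylase, and Hk2, hexokinase 2, stood out from the hypoxia list in this way, at -1.09 ± 0.09 and -0.57 ± 0.09 at 0 h and 0.68 ± 0.09 and 0.60 ± 0.09 at 12 h. At 0 h that list had 10 of 28 members lower and 0 higher.

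The state at 12 h was largely in place at 6 and 9 h. The arrays of those times do not enter the 12 h differences. All 48 arrays share 1 estimate of the spread, however, so the calls at different times are not independent. At 6 h 2192 genes (17.1%) differed between the lines, 975 higher (7.62%) and 1217 lower (9.51%). Of probe sets, 1574 were higher (5.79%) and 2033 lower (7.48%) at 6 h, or 1973 and 1396 with median centring. At 9 h 2055 genes (16.1%) differed, 980 higher (7.66%) and 1075 lower (8.4%). Of the genes higher at 12 h 706 (69.9%, and 72.4% of the 975) were higher at 6 h and 769 (76.1%, and 78.5% of the 980) at 9 h; of the lower genes 734 (66.4%, and 60.3% of the 1217) were lower at 6 h and 782 (70.8%, and 72.7% of the 1075) at 9 h. Opposite calls were 2 and 11 at 6 h and 0 and 0 at 9 h. Counting calls in the 12 h direction only, 438 higher and 471 lower genes passed at 6, 9 and 12 h but not at 0 h. By the same count 197 and 144 passed at all 4 times, and 164 and 197 at 12 h alone. A gene called in the opposite direction at another time, such as Ada at 0 h, was taken as not passing there. Gpr84 had reached 3.47 at 6 h, Itgam 4.55 and Zfpm1 -2.69. Mpo was later, at 0.74 ± 0.40 at 6 h (adjusted p = 0.274), 3.12 at 9 h and 4.77 at 12 h. Il2ra went from -1.93 at 6 h to -2.98 at 12 h, Slc1a4 from -0.65 to -1.67 and Trib3 from -0.29 to -1.04. Differences between these times were not tested.

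**Figure D5:**
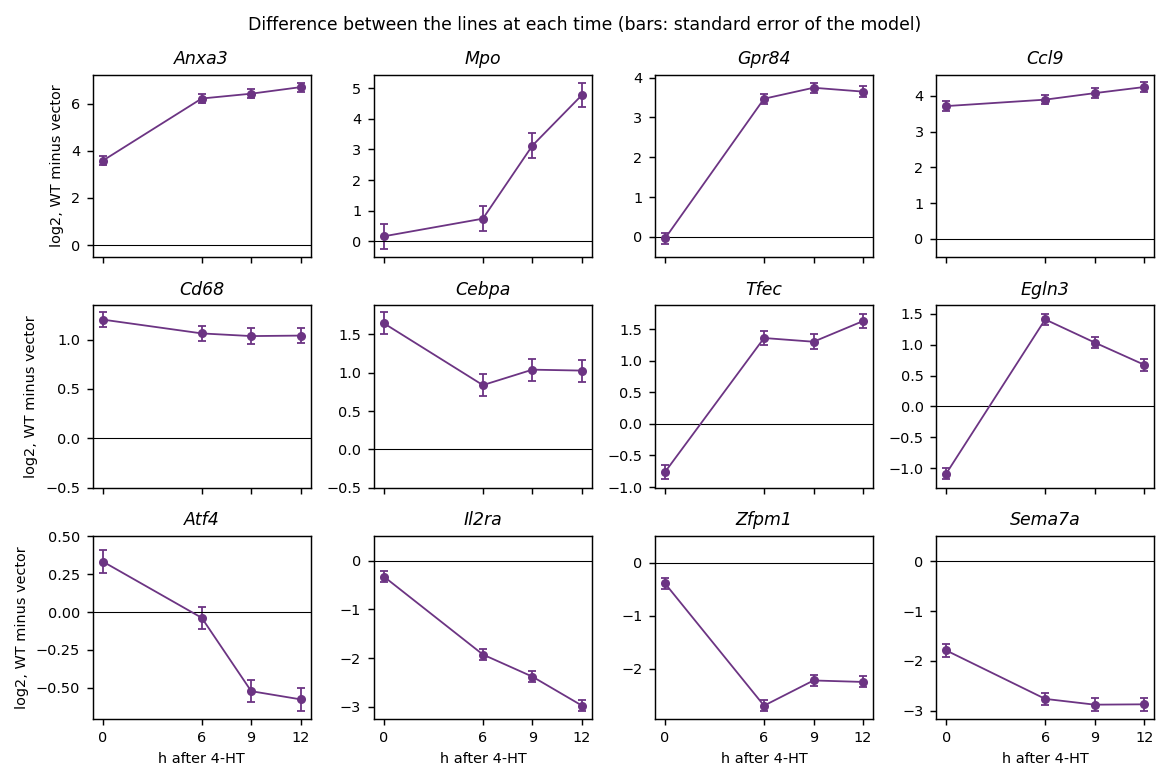
The log2 difference between WT and vector cells at 0, 6, 9 and 12 h after 4-HT is plotted for 12 genes, with the standard error of the model as bars; each panel has its own vertical scale. Ccl9 and Cd68 are already above 0 at 0 h, Gpr84 has reached its 12 h value by 6 h, Mpo climbs to 4.77 at 12 h, and Tfec and Egln3 cross 0 between 0 and 6 h.

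The subtraction of the 0 h difference asks another question, and the 2 counts were set side by side because they share the 12 h arrays. Where 2115 genes passed directly at 12 h, the 12 h difference differed from the 0 h difference for 919 genes (7.18%), 488 higher (3.81%) and 431 lower (3.37%). The subtracted difference also carries the error of the 0 h groups, so its standard error is larger (0.1457 against 0.103 for Ada). Fewer genes can pass for that reason alone, and a call lost after subtraction does not show that the difference was there before 4-HT. Of the lists, integrins and Fc receptors had 10 of 17 higher directly and 7 after subtraction, the inhibitory and paired receptors 8 and 4 of 14, the chemoattractant receptors 7 and 7 of 14, and the monocyte and macrophage list 5 and 1 of 15. For the cytokine gene Ccl9 and for Cd68 the subtracted differences, 0.53 (adjusted p = 0.0905) and -0.16 (adjusted p = 0.591), did not pass. That of Ccl9 passed as higher with quantile normalization (adjusted p = 0.00132), the compared arrays alone (adjusted p = 0.00639) and array weights (adjusted p = 0.0128).

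The 12 h signals of the K298E line, whose fusion does not bind DNA per the labels, and of the Δ(177-191) line, whose fusion lacks the contact with CDK2 and CDK4 per the labels, placed some WT levels in context; no difference between the fusions was tested here. In WT cells Mpo was at 385 ± 17.7 (SD, n = 3), against 25 ± 8.54 in the K298E line, 15.7 ± 6.66 in the Δ(177-191) line and 12.7 ± 8.96 in vector cells. Il4 was at 673 ± 26.0, 42.0 ± 9.17 and 50 ± 12.8 in WT, K298E and Δ(177-191) cells. Tfec was at 1389 ± 65.6, 304.3 ± 32.7 and 98.3 ± 31.8 in the same order. These 3 genes were highest in the WT line. Lcn2 (1513 ± 28.4, 200.7 ± 33.6 and 6483 ± 1163) and Gpr84 (765 ± 68.0, 166.7 ± 44.4 and 2701 ± 226) were instead highest in Δ(177-191) cells. The order of Prtn3 was 2556 ± 80.3, 1691 ± 501 and 172 ± 3, with the lowest level in Δ(177-191) cells. Among the lower genes, Gata2 was at 945 ± 76.1, 1730 ± 98.9 and 164 ± 25.2 in that order, and Tal1 at 732 ± 49.3, 1405 ± 69.7 and 424 ± 31.5. Myb read 2409 ± 58.1 in the WT line, 2442 ± 115 in the K298E line and 160.3 ± 20.7 in the Δ(177-191) line, so a low Myb signal at 12 h was found in the last line and not in the WT line.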

How the data were processed

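The authors deposited MAS5 signals, which are linear intensity values rounded to integers (per the submitters' processing notes and the numbers themselves); the MAS5 version is not given in the sources used here, and the arrays share 1 scale. RNA was hybridised to Affymetrix MOE430_2 arrays, per the labels. Of 45101 probe sets 64 controls were left out; 34945 of the others carry 1 gene symbol in the platform annotation, 932 several and 9160 none, and symbols were updated by gene identifier (34741 matched) from RefSeq GRCm38.p6. Signals were taken as log2(signal + 3), 3 being the 20th percentile of the table. The filter kept probe sets with any of 16 group means above the table's median (4.09, a signal of 14), which left 27167, of which 22970 carry 1 symbol; each of 12800 genes was represented by its brightest probe set. The probe sets of Myb, Cdk4, Ctse, Dusp7, Ndrg1, Nupr1 and Tcf4 may read related transcripts, by their names.

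All 48 arrays entered 1 linear model with 16 group means (limma 3.58.1, R 4.3.3; variance following the mean, 32 residual degrees of freedom). The threshold was a two-sided Benjamini-Hochberg adjusted p under 0.05 over the probe sets tested. The pipeline was tested on simulated data. The number of arrays limits the precision. Genes were named by rule: the 15 highest and 15 lowest differences among genes with a group mean of at least 100, up to 3 per direction of each of 33 lists (689 of 834 entries tested), the 5 largest with opposite calls at 0 h, the 5 highest and 5 lowest with the same call at 0 h, and 16 fixed genes. The members and lists were chosen with earlier results of these data known. Alternatives were pseudocounts of 12 and 32, no filter, a filter on the compared groups, quantile normalization, median centring, array weights, the compared arrays alone, a replicate block, leaving out each array and other probe sets of the named genes.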

Additional observations from a re-analysis of the deposited data

Results flagged for a closer look

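For 919 genes the difference between WT and vector cells at 12 h differed from the difference at 0 h (limma, adjusted p under 0.05). Among those with opposite directions at the 2 times, the 12 h difference minus the 0 h difference was 2.39 for Tfec (adjusted p = 2.5e-14), 1.77 for Ada (adjusted p = 2.6e-12), 1.90 for Nfil3 (adjusted p = 3.5e-09), 1.28 for Ehbp1 (adjusted p = 8.47e-08) and -1.54 for Rab19 (adjusted p = 0.000309) on the log2 scale. The 0 h call of Rab19, and with it the opposite directions, did not hold without any 1 of the 6 arrays at 12 h (adjusted p = 0.0516 to 0.0526).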

How the results depend on the processing

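Of the 1010 higher and 1105 lower genes at 12 h, 98.8% and 99.0% kept their call with a pseudocount of 12, 89.8% and 87.4% with no filter, 98.8% and 93.2% with quantile normalization and 99.9% and 75.9% with median centring. With a pseudocount of 32 the genes past 2-fold were 145 higher and 84 lower. With array weights 648 genes had a 12 h difference lower than the 0 h difference. Without 1 of the 6 arrays at 12 h, 838 to 894 genes were higher and 862 to 954 lower. Array weights raised the counts to 1293 and 1452. The replicate numbers were not shown to pair the arrays, since same-numbered WT and vector arrays deviated together with correlations of 0.1728, -0.004566 and 0.3216; with the number as a replicate block 1027 genes were higher and 1124 lower, and 999 and 1094 of these were shared.

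Of 159 named genes past the threshold, 139 kept the call in all 15 settings that refit the model. Of 20 that lost it in at least 1, 12 did so in a setting other than leaving out an array. The genes opposite at 0 h and 12 h were 16 and 13 with no filter, 20 and 15 with median centring and 41 and 37 with array weights, where 596 genes were lower at 0 h. Other probe sets had the opposite sign, none of them past the threshold, for Anxa6 (0.26), Cct3 (0.0585 and 0.18), Cd200r1 (0.88), Cd200r3 (-0.11), Esr1 (-0.24 and -0.37), Lta4h (-0.72), Nr4a2 (0.47 and 0.51) and Tnfrsf9 (0.48); the cause was not tested. Dim signals limit the size of the differences of Igsf6, Ctsg, Hp, Plppr3 and C1qtnf1, which depend on the added 3.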
